A study of Mus musculus with 2 samples.

Results

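Promoters are the stretches of DNA around a transcription start site (TSS) where general transcription factors and RNA polymerase II assemble. In most mammalian cells they are kept free of tightly packed nucleosomes, many of them within CpG islands, whereas enhancers in introns and between genes open in a more cell type- and signal-dependent manner. Activated cardiac fibroblasts, or myofibroblasts, make collagens, other matrix proteins and a contractile actin apparatus in response to transforming growth factor β (TGF-β) and to stretch, and PIEZO2 is a mechanically gated cation channel. ATAC-seq measures how open a stretch of DNA is from the number of fragments that the transposase Tn5 cuts there. The regions described here are the accessible sites that the deposited peak table classes as promoter within 1 kb of a TSS. There were 9251 such promoter peaks among 63316 peaks, and they belonged to 8262 genes.

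The study profiled primary murine cardiac fibroblasts, labelled as heart tissue, in 2 libraries. Both were treated with TGF-β, given in the study's description as 5 ng/ml for 24 h. The NC library is the control, described in the study as cells with scrambled siRNA, and the SiPiezo2 library is from cells with siRNA against Piezo2. The study's mouse strains had a C57BL/6 J background; no age or transgene is given for these libraries, primary cultures can hold other cell types of the heart, and there was 1 library per condition. No difference between the libraries therefore has a replicate check, no test was made, and nothing below separates the knockdown from other differences between 2 libraries. The design text of the series instead names a knockout of Tet3 by Cre, the labels give total RNA as the molecule, and the study's methods describe minced tissue and a kit other than the labelled one. Which account holds is not known, and the groups rest on the labels.

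Short lists of defining markers were used to check the cell type. Of 12 markers of cardiac fibroblasts, 10 had at least 1 peak, and their 43 peaks summed to a normalized read density of 1726 in the NC library and 1579 in the SiPiezo2 library. The promoter peaks of 5 of them (Dcn, Ddr2, Gsn, Tcf21 and Vim) summed to 268 and 270, whereas Lum and Thy1 had no peak. Of 7 cardiomyocyte markers, Actc1, Myh6, Myh7, Nppa and Tnni3 had no peak, and the other 2 summed to 113 and 120 over 5 peaks. Endothelial markers had peaks at 7 of 8 genes (660 and 646), leukocyte markers at 5 of 7 (307 and 281) and pericyte and smooth muscle markers at 5 of 6 (479 and 397), with a promoter peak at 1, 0 and 2 of these genes. The part of other cell types in the values below was not tested, and in bulk libraries fewer open cells and less opening per cell cannot be told apart. Piezo2 itself had no promoter peak by this class; its 14 peaks were in the 5′ UTR and introns, and ATAC-seq does not measure how much of its RNA was left.

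Sequences of 8 promoters are shown first, since the genes recur below and their promoters hold the motifs to which the results by sequence refer. They were read from the RefSeq promoter table for the mouse build GRCm38.p6, and are written 5′ to 3′ on the gene's own strand, with the match in capitals. Myl9, Egr2 and Srf hold the CArG box that serum response factor (SRF) binds. The Myl9 promoter was among the lowest of the actin genes after siPiezo2, Egr2 was lower, and Srf, which has a pair of boxes, was near equal in both libraries.
Myl9, chr2:156775264-156775413, plus strand: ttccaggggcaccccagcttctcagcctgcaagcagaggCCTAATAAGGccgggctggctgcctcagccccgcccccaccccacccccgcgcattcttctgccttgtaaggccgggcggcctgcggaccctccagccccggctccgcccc
Egr2, chr10:67537719-67537868, plus strand: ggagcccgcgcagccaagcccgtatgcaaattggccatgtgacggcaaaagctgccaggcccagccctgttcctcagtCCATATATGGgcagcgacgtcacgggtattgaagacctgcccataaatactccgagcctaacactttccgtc
Srf, chr17:46556183-46556312, minus strand: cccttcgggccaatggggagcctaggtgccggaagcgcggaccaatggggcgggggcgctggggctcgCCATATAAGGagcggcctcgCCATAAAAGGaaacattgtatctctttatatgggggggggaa
Edn1, Lmod1 and Wwtr1 hold the letters GGAATG, on either strand, of the TEAD motif. Edn1 and Lmod1 had lower promoter density in the SiPiezo2 library, while the interval of Wwtr1, which encodes the TEAD partner TAZ, spanned no change.
Edn1, chr13:42301226-42301375, plus strand: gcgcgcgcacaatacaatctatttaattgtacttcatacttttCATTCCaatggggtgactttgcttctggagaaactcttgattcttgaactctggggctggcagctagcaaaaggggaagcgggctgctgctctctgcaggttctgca
Lmod1, chr1:135324613-135324762, plus strand: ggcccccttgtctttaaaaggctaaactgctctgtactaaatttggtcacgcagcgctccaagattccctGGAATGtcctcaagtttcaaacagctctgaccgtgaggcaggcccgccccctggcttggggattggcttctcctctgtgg
Wwtr1, chr3:57575961-57576110, minus strand: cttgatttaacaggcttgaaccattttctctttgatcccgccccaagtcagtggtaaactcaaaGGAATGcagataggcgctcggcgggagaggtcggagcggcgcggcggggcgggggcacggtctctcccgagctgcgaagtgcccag
Postn shows a TATA box with few CpG dinucleotides, and Hsp90b1 a promoter with 3 CCAAT boxes, written here as ATTGG, that was higher in the SiPiezo2 library.
Postn, chr3:54360957-54361096, plus strand: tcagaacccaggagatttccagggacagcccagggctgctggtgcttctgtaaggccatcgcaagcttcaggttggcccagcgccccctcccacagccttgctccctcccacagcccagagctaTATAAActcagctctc
Hsp90b1, chr10:86705495-86705644, minus strand: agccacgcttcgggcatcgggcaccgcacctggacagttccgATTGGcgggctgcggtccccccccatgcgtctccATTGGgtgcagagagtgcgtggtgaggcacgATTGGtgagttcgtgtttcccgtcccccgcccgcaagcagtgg
These coordinates are on GRCm38.p6, whereas positions of peaks below are as the deposited table gives them. Of 14931 genes in that table only 2.86% start within 1000 bp of their GRCm38 position, although the submitters' notes name mm10, so the 2 sets of positions must not be joined.

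At promoters the SiPiezo2 library had a similar density to the NC library, with a ratio above that at other peaks. The median promoter peak had a normalized read density of 34.5 in the NC library and 33.1 in the SiPiezo2 library. The log2 ratio used throughout is that of SiPiezo2 density + 1 to NC density + 1, where the pseudocount of 1 understates the difference at weak peaks. Its median over promoter peaks was -0.030 (quartiles -0.25 and 0.18), and 4966 of 9251 peaks (53.7%) were lower in the SiPiezo2 library. Over the 54065 other peaks the median was -0.16 (quartiles -0.43 and 0.11), which put the promoter median 0.13 above it. First intron peaks (n = 9482) had a median of -0.15, peaks from 1 to 2 kb upstream (n = 1260) of -0.16 and distal intergenic peaks (n = 19430) of -0.18. Peaks that the table classes as 5′ UTR had a median of -0.043 (n = 2599), nearer to promoter peaks than to the other classes.

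Few promoters differed by much. Over all peaks, 13.5% had a ratio below 0.66 and 3.21% a ratio above 1.5. Among promoter peaks 542 (5.86%) were below 0.66 and 183 (1.98%) above 1.5, while 97 were more than 2-fold lower and 12 more than 2-fold higher. Both shares were smaller than over all peaks, and the lower one by more. This was not particular to promoters, since peaks of the 5′ UTR class had 5.54% below 0.66 and 2.19% above 1.5. The log2 ratios of promoters ranged from -1.81 to 1.33. The histogram of log2 ratios by peak class shows the difference as a narrower promoter curve with a thin left side.

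**Figure D1:**
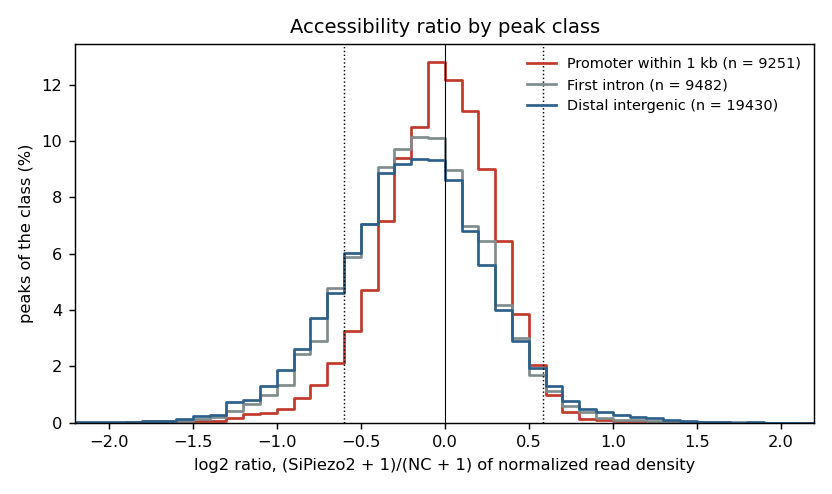
Histogram of the log2 ratio of normalized read density, SiPiezo2 to NC, on the x axis, with the percent of each class's peaks on the y axis; dotted lines mark ratios of 0.66 and 1.5. The promoter curve (red, 9251 peaks) is centred near 0, with 5.86% of its peaks left of the lower line, against 14.1% for first intron (grey) and 16.6% for distal intergenic peaks (blue).

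The read numbers behind the densities limit what a single promoter can show. A promoter window of 2000 bp held a median of 85 reads in the NC library and 52 in the SiPiezo2 library, and the 95% exact (Clopper-Pearson) interval of a promoter's log2 ratio had a median width of 1.05. These intervals cover counting error only, and the ratios of promoter peaks called in both libraries varied 1.61 times as much as counting error gives. The interval was wholly below 0 for 488 of the 542 lower promoters (90.0%) and wholly above 0 for 168 of the 183 higher ones (91.8%). These promoters were picked by the same reads, so such shares are largely set by the choice and do not check it. Over all genes with a promoter peak, 7.74% had an interval below 0 and 5.71% above 0. Of the promoter windows, 2585 (27.9%) overlapped that of another peak and share reads with it.

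The sign of the promoter median rested on the scaling, and so did the size of the gap between promoters and other peaks, while its direction did not. The authors' densities had been brought to a common level by a linear fit, and the median over all peaks was -0.13. With median-of-ratios scaling that median became 0 and the promoter median 0.11, with 3.22% of promoters below 0.66 and 5.51% above 1.5, so that 36.9% of the promoters past either threshold were lower instead of 74.8%. With both libraries at the same total density, 50.8% of them were lower and the promoter median was 0.056. With the recovered reads and 1 factor for all peaks, 42.2% were lower and the promoter median was 0.048. The promoter median stayed above that of other peaks under every scaling, by 0.13 with the densities and by 0.034 with the reads.

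Promoters are stronger than other peaks, so peaks were also compared at like strength, in deciles of all peaks by mean density. In the strongest decile the 2306 promoter peaks had a median log2 ratio of 0.086, against -0.069 for first intron and -0.086 for distal intergenic peaks. In that decile 1.78% of promoters and 13.6% of distal peaks were below 0.66. In the next strongest decile the medians were -0.021, -0.14 and -0.18, and in the weakest decile -0.34, -0.32 and -0.31. The separation of promoters from these 2 classes was thus a feature of the stronger peaks. Against peaks from 1 to 2 kb the order was less even. Those peaks had -0.10 in the strongest decile and -0.054 in the next. In decile 5 they were above promoters, with -0.031 against -0.12. Peaks of the 5′ UTR class were not compared by decile. The promoter median was above the distal one in 8 of 10 deciles, with differences from -0.034 to 0.17, and above the first intron one in 9 of 10. With the recovered reads and 1 factor the same counts, 8 of 10 and 9 of 10, were found, and the differences from distal peaks ran from -0.054 to 0.17.

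Among promoters alone, strength and ratio went together in the deposited densities. In 4 equal groups of promoters, from the weakest to the strongest, the medians were -0.12, -0.068, -0.029 and 0.086, and the share below 0.66 went from 10.9% to 1.77%. With the reads and 1 factor for all peaks these medians were 0.091, 0.061, 0.029 and 0.026, so the order turned. The relation of ratio to promoter strength therefore depended on the authors' fit, in which the correction changes with density, and the plot of deciles shows both forms side by side.

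**Figure D2:**
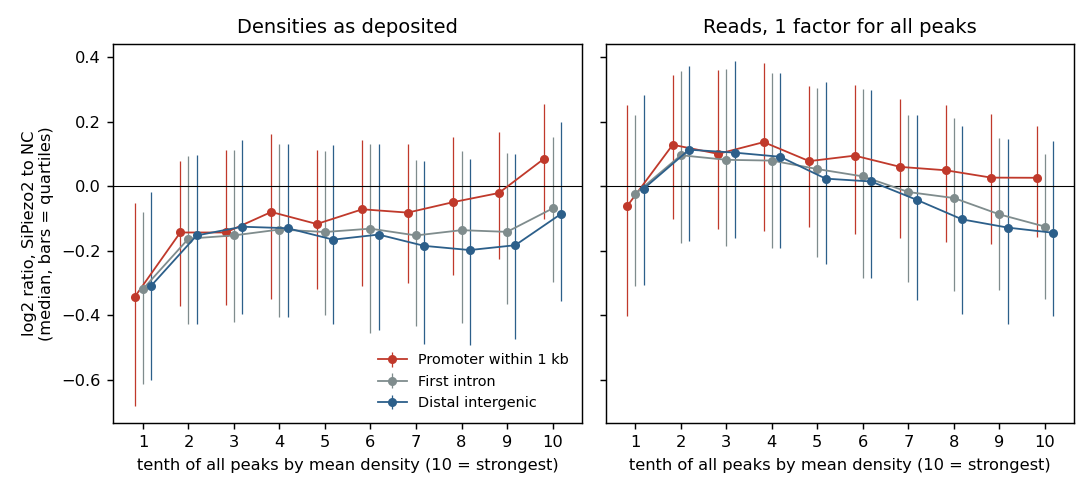
Median log2 ratio (points) with quartiles (bars) of promoter, first intron and distal intergenic peaks on the y axis, in deciles of all peaks by mean density on the x axis, for the deposited densities (left) and the recovered reads with 1 factor (right). The level and slope differ between the panels, while promoters lie above distal peaks in 8 of 10 deciles in both, by up to 0.17.

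Where a peak was called followed the same split. Both libraries had a call at 5584 promoter peaks (60.4%), NC alone at 3524 (38.1%) and SiPiezo2 alone at 143 (1.55%), with median log2 ratios of 0.045, -0.18 and 0.30. The SiPiezo2 library held 0.597 of the NC reads in peak windows, so fewer calls there do not by themselves show less opening. With the reads and 1 factor the medians were 0.079 for calls in both and -0.025 for NC alone. Calls in both libraries made up 29.3% of the other peaks. Calling and ratio rest on the same reads, so these medians describe the calls. Of the 542 promoters below 0.66, 436 (80.4%) had been called in the NC library only.

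The promoter peaks farthest from the TSS had the lowest median. All centres lay at or upstream of the TSS, with a median distance of -80 bp. The 958 peaks farther out than -500 bp had a median log2 ratio of -0.12 and 10.4% of them were below 0.66, whereas the 2194 peaks from -250 bp to beyond -100 bp had a median of 0.0096 and 4.38%. The 2110 peaks from there to beyond -50 bp had a median of -0.014 and 5.97%, and the 3218 peaks nearest the TSS -0.030 and 4.63%, so the order was not one of distance throughout. Under the reads with 1 factor the far peaks were at -0.0087 and those within 250 bp at 0.058, the same order. Promoters of long noncoding RNA genes (n = 985) had a median of -0.083 with 10.8% below 0.66, and those of protein-coding genes (n = 7920) had -0.025 with 5.2%. This gap was narrower with the reads and 1 factor, 0.029 against 0.048. It also rested on strength. Above the median density of all peaks the medians were -0.073 for long noncoding and -0.0036 for coding promoters. Below it the order turned, with -0.097 and -0.14. Coding promoters with another coding TSS head to head within 1000 bp (n = 637) had a median of 0.034 and 2.36% below 0.66, and the other coding promoters (n = 7247) -0.032 and 5.46%.

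The single promoters that differed most were named by rule, as the 8 lowest and 8 highest ratios among promoter peaks above the median density. The lowest was Csdc2 (ENSMUSG00000042109), which encodes a cold shock domain RNA-binding protein, at chr15:81820361-81821248. Its density was 77.7 in the NC library, from 197 reads, and 24.9 in the SiPiezo2 library, from 38 reads, a log2 ratio of -1.61 (interval -2.21 to -1.17). Chd2, a chromatin remodeller, had 54.0 and 19.2 (-1.44), and Mfsd2a, a transporter of lysophospholipids, had 57.8 and 23.2 (-1.28). Syt8, a synaptotagmin, stood at 63.8 and 24 (-1.38). All of these were far lower in the SiPiezo2 library. They were ranked by the same reads that give the intervals, so intervals below 0 are no added support. The other 4 of the 8 were noncoding genes, namely Gm49097 (-1.50), Gm15270 (-1.26), Gm44105 (-1.24) and A930003A15Rik (-1.23). Of the 8, only Gm49097 was called in both libraries, and the others in the NC library only.

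Gm15270 was the strongest of these. Its promoter peak, at chr10:24473110-24474013, had a density of 170 from 467 reads in the NC library and 70.4 from 101 reads in the SiPiezo2 library (interval -1.61 to -0.97). It lies beside Ccn2, the gene of the matricellular protein CTGF: 1999 bases separate the summits of their promoter peaks, and the windows overlap. Both peaks were lower in the SiPiezo2 library, that of Gm15270 by more.

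At the other end, Gm56794 (ENSMUSG00000120730), at chr3:105732766-105733646, had 46.0 from 121 reads in the NC library and 105 from 157 reads in the SiPiezo2 library, a log2 ratio of 1.17 (interval 0.84 to 1.55). Hjurp, the chaperone that loads the centromeric histone CENP-A, had 35.0 and 69.5 (0.97). Ebp, a sterol isomerase of cholesterol synthesis, had 24.2 and 43.5 (0.82), and Cyp1b1, a cytochrome P450, 31.2 and 54.5 (0.79). The remaining 4 were 4931408C20Rik (1.15), Wdr25 (0.78), and the weaker promoter peaks of Capzb and Cald1. Capzb, a subunit of the actin capping protein, went from 28.4 to 58.9 there (1.03), and Cald1, the actin-binding caldesmon, from 42.5 to 80.4 (0.90). The peaks of 4931408C20Rik and Cald1 were called in the SiPiezo2 library only, and the others in both. Csdc2, Gm56794 and Hjurp kept their direction under the pseudocount of 0.1 and all scalings, with log2 ratios from -1.64 to -1.47, from 1.10 to 1.31 and from 0.97 to 1.11.

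**Figure D3:**
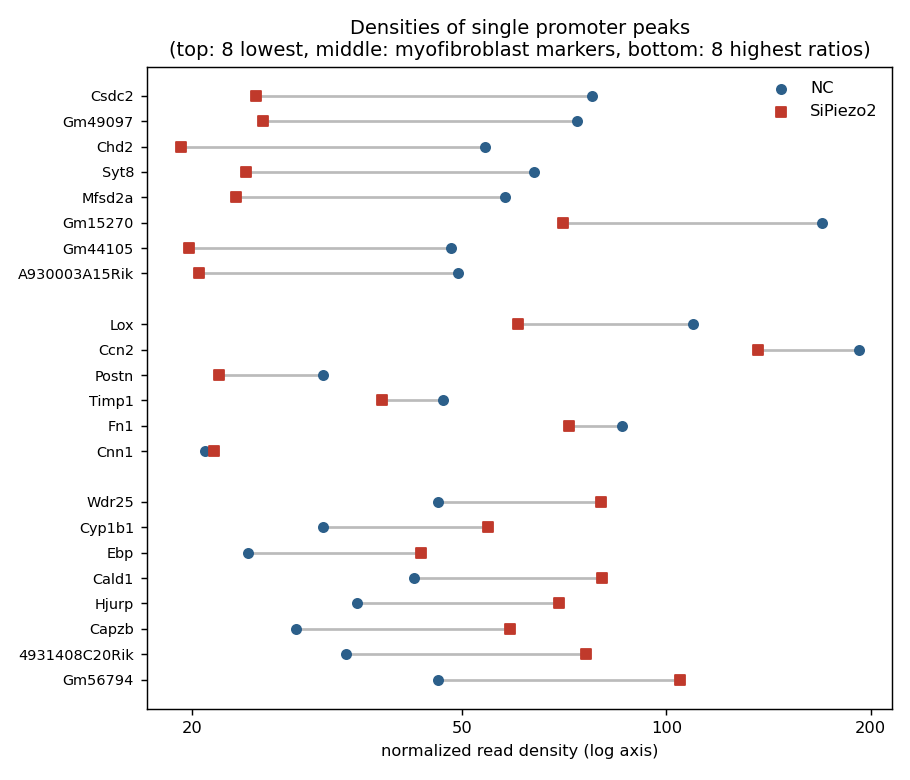
Normalized read density (x axis, log scale) of single promoter peaks in the NC (blue circle) and SiPiezo2 (red square) library, 1 line per gene. The 8 lowest ratios are on top, with Csdc2 at 77.7 and 24.9; the 6 myofibroblast markers are in the middle, all lower in the SiPiezo2 library except Cnn1; and the 8 highest ratios are at the bottom, with Gm56794 at 46.0 and 105.

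By the mean of both libraries, the 5 strongest promoter peaks were higher in the SiPiezo2 library in the deposited densities. Sp1, a general activator of GC-rich promoters, had the highest mean, with 182 in the NC and 258 in the SiPiezo2 library (0.50), and its other peak had 137 and 201 (0.55). Khsrp, an RNA-binding protein, had 161 and 211 (0.39), Rab40c, a small GTPase, 148 and 205 (0.47), and Gm56649 159 and 199 (0.33). With the reads and 1 factor these log2 ratios shrank to 0.14 and 0.26 for Sp1, 0.074 for Khsrp, 0.17 for Rab40c and 0.020 for Gm56649, so their size depended on the fit. The ranking matters too, since in the NC library alone Ccn2 (192) was above the first of these and Gm15270 (170) above the other genes, and both were lower in the SiPiezo2 library.

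Myofibroblast markers are the genes by which fibroblast activation is scored, and 6 of the 13 on the list had a promoter peak. Of these, 5 were lower in the SiPiezo2 library, 1 was below 0.66, and the median log2 ratio was -0.39, against -0.021 over all 8259 gene symbols with a promoter peak, of which 4352 were lower and 454 below 0.66. Lox, the lysyl oxidase that cross-links collagen, had 109 from 293 reads in the NC library and 60.5 from 89 reads in the SiPiezo2 library (-0.84, interval -1.22 to -0.52). Ccn2 had 192 and 136 (-0.49, interval -0.74 to -0.26), with a range from -0.78 to -0.35 over the scalings. For Lox and Ccn2 the interval lay below 0. Postn, which encodes the matricellular protein periostin, had 31.2 and 21.9 (-0.49), Timp1, an inhibitor of matrix proteases, 46.8 and 38.1 (-0.29), and Fn1, fibronectin, 86.1 and 71.7 (-0.26), all with intervals that include 0. Over the scalings Fn1 ranged from -0.37 to -0.12 and Timp1 from -0.30 to -0.15. Cnn1, the smooth muscle calponin, was at 20.9 and 21.5 (0.042). Acta2, Col1a1, Col1a2, Col3a1, Tagln, Cthrc1 and Fap had no peak in the promoter class. All but Fap had a peak within 1 kb of a TSS that the table puts in another class, such as 5′ UTR or first intron.

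Extracellular matrix genes had the lowest median of the lists with more than 6 promoters. Only 48.3% of their promoters were called in both libraries, against 63.3% over all genes. Of 61 structural matrix genes 29 had a promoter peak, and 23 of these were lower, 7 below 0.66 and 2 above 1.5, with a median of -0.40. Mfap4, a protein of elastic microfibrils, was lowest with 64.5 and 28.0 (-1.18, interval -1.75 to -0.74). Col11a1, a minor fibrillar collagen, had 45.3 and 25.6 (-0.80), and Ltbp4, a latent TGF-β binding protein of elastic fibres, 36.0 and 20.8 (-0.76). Chosen after their values were seen, Col8a1 (-0.76), Fbln5 (-0.71), Ccn1 (-0.67) and Sparc (-0.49) also had intervals below 0. Against this stood Dcn, the small proteoglycan decorin, with 28.8 and 44.5 (0.61, interval 0.13 to 1.13), Ltbp3 with 33.4 and 57.3 (0.76, interval 0.34 to 1.23), and the laminin chain gene Lamc1 (0.34, interval 0.038 to 0.65, or 0.20 with the reads and 1 factor). The interval lay below 0 for 9 of the 29 genes and above 0 for 3, whereas over all genes these counts were 639 and 472 of 8259. The medians of the matrix and myofibroblast lists stayed below 0 with the pseudocount of 0.1 and under every scaling run, from -0.42 to -0.27 and from -0.39 to -0.25. The 12 collagen processing genes had a median of -0.14, with Lox and Bmp1, a procollagen protease (43.1 and 29.4, -0.54), as the only intervals below 0. Calling and ratio rest on the same reads, and lists differed in the share called in both libraries. It was 25% for pericyte and smooth muscle, 56.5% for TEAD, 58.1% for SRF, 66.7% for myofibroblast, 69.0% for histone and 72.5% for actin lists. Proteasome, unfolded protein and cholesterol lists had 89.5%, 94.4% and 100%. With only promoters called in both, 5 of 26 list medians turned from below to above 0.

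Actin cytoskeleton genes were split. Of 60 genes 40 had a promoter peak, of which 26 were lower, 7 below 0.66 and none above 1.5, with a median of -0.10. Myl9, the regulatory light chain of non-muscle and smooth muscle myosin, had 51.8 from 128 reads and 21.8 from 34 reads (-1.21, interval -1.87 to -0.72). Actn4, an actin cross-linker, had 56.0 and 30.4 (-0.86, interval -1.41 to -0.41). The formin gene Diaph3 (-0.83), Synpo2 (-0.81), the ARP2/3 subunit gene Arpc5 (-0.78) and Cnn3 (-0.74), chosen after their values were seen, followed. Zyx, the focal adhesion protein zyxin, was the highest with 136 and 192 (0.50, interval 0.27 to 0.73), though 0.22 with the reads and 1 factor. The interval lay below 0 for 10 genes (25%) and above 0 for 1 (2.5%), against 7.74% and 5.71% of all genes, and 17.5% were below 0.66 against 5.50%.

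SRF target genes overlap with the actin genes, and of 45 on the list 31 had a promoter peak. Their median was -0.057, with 21 lower, 7 (22.6%) below 0.66, where 5.50% of all genes were, and none above 1.5. Tuft1 was the lowest, with 29.2 and 11.2 (-1.31, interval -2.28 to -0.67), and Egr2, an immediate early zinc finger factor, had 48.9 and 28.9 (-0.74). TEAD, YAP and TAZ target genes had 23 promoter peaks of 34, 14 lower and 4 (17.4%) below 0.66, with a median of -0.12. Edn1, the vasoactive and profibrotic peptide endothelin 1, was the lowest of them with 43.7 from 106 reads and 17.8 from 28 reads (-1.25, interval -1.99 to -0.72), and Arhgef17 had 48.1 and 28.9 (-0.72). Of 41 focal adhesion genes 27 had a promoter peak, with a median of -0.097, 15 lower and 1 (3.70%) below 0.66, Tgfb1i1 (57.8 and 37.1, -0.62). With median-of-ratios scaling the medians of the actin, focal adhesion, SRF and TEAD lists were above 0 (0.034, 0.036, 0.081 and 0.015), and that of the SRF list also at the same total density (0.030), so the sign of these medians depends on the scaling. Under the reads with 1 factor they were -0.17, -0.013, -0.10 and -0.080, and each lay below the median of all promoter peaks under every scaling. Markers of pericytes and smooth muscle cells, some of them contractile genes as well, moved with the matrix and myofibroblast lists: of 12 on the list 4 had a promoter peak, 3 of these were lower and the median was -0.45, from -0.47 to -0.25 with the pseudocount of 0.1 and the other scalings. Lmod1 had 33.6 and 20.7 (-0.67, interval -1.35 to -0.12), Notch3 18.1 and 12.8 (-0.47), Myh11 32.6 and 23.9 (-0.43) and Cnn1 0.042, the last 3 with intervals that include 0. Their part in the values of the other lists was not tested.

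Of 19 regulators, being factors and channels that the study names and related factors added to the list, 10 had a promoter peak and 5 of these were lower. Tead3 had 43.0 and 25.5 (-0.73, interval -1.34 to -0.24), Tead1 had 55.6 and 35.7 (-0.62, interval -1.13 to -0.19), and the related mechanosensitive channel gene Piezo1 had 49.8 and 32.9 (-0.58, interval -1.11 to -0.13). These 3 of 10 (30%) had intervals below 0, against 7.74% of all genes. Their log2 ratios were no higher than -0.447 under any scaling. Wwtr1 was at 83.7 and 70.2 (-0.25) and Smad3, the TGF-β effector, at 54.7 and 52.5 (-0.058). Srf had 67.9 and 71.0 (0.064), Junb 85.7 and 88.6 (0.047), Tead4 18.5 and 20.2 (0.12), Mrtfb, an actin-sensing SRF cofactor, 60.8 and 67.2 (0.14), and Nr4a1, an orphan nuclear receptor, 58.5 and 68.4 (0.22), all with intervals that include 0. The other 9, among them Tet3, Yap1, Mrtfa, Myocd and Spi1, had no peak in the promoter class.

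The TGF-β pathway as a whole was near equal in both libraries, with a median of -0.016 over 24 of 36 genes, 13 lower, 1 below 0.66 and 2 above 1.5, and 0.12 with median-of-ratios scaling. The interval lay above 0 for 5 members (20.8%) and below 0 for 1 (4.17%), against 5.71% and 7.74% of all genes. The 5 were Ltbp3, already given, and 4 others. Smurf2, a ubiquitin ligase for SMADs and the receptor, had 23.2 and 36.9 (0.65, interval 0.12 to 1.23). The rest, chosen after their values were seen, were the corepressor genes Ski, with 80.8 and 120 (0.57, interval 0.28 to 0.87), and Tgif1, with 62.5 and 90.1 (0.52, interval 0.19 to 0.86), and the inhibitory SMAD gene Smad7, with 73.6 and 101 (0.45, interval 0.13 to 0.76). Under the reads these 4 were at 0.79, 0.41, 0.43 and 0.32, the same direction. The nearest relatives of 3 of them were not higher, with Smurf1 at -0.28, the corepressor gene Skil at -0.060 and the inhibitory Smad6 at -0.30, all with intervals that include 0. Ltbp4 was the only member with an interval below 0.

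Histone genes, which sit in dense clusters and are expressed in S phase, were another list with a low median. Of 29 core and linker histone genes with a promoter peak 24 were lower, 8 (27.6%) below 0.66, against 5.50% of all genes, and none above 1.5, with a median of -0.35 and a range of the median from -0.36 to -0.20 over the other scalings and pseudocount. H2bc6 had 66.4 from 168 reads and 28.0 from 43 reads (-1.22, interval -1.79 to -0.78), and H3c11 had 26.3 and 12.4 (-1.03). H1f8 (0.38) and H2aj (0.25) were the highest, with intervals that include 0. The cell cycle list showed no such shift: its 37 promoters had a median of -0.034, or 0.10 with median-of-ratios scaling, with Ccnb2 (28.0 and 15.5, -0.81) and Cdc20 (62.1 and 40.0, -0.62), both of mitosis, below 0.66 and Cdk4, of G1 phase, at 47.8 and 73.3 (0.61). The share of the list below 0.66 was 5.4%, against 5.50% of all genes, and the share above 1.5 was 2.70%, against 1.998%. Both were near the background, so these members give no reading by phase.

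The lists given next, of housekeeping, immediate early, stress response, chromatin and cholesterol synthesis genes, had medians between -0.043 and 0.079, against -0.021 for all genes with a promoter peak. Interferon response genes, described further below, had a lower median of -0.13. Cytosolic ribosomal protein genes (n = 49) stood at -0.043, mitochondrial respiratory chain genes (n = 47) at 0.017, proteasome subunits (n = 19) at 0.079, splicing and translation initiation genes (n = 36) at 0.058 and immediate early and AP-1 genes (n = 30) at 0.043. In the unfolded protein and heat shock list (n = 18, median 0.078) the endoplasmic reticulum chaperone gene Hsp90b1 was the highest, with 95.6 from 264 reads and 138 from 198 reads (0.52, interval 0.25 to 0.80), or 0.33 with the reads and 1 factor. Genes of DNA methylation and histone modification (n = 44) had a median of 0.022, none below 0.66 and 1 above 1.5, the chromatin remodeller Smarca4 (26.1 and 41.7, 0.65). The share above 1.5 was 2.27% of this list, near the 1.998% of all genes, while 5.50% of all genes were below 0.66. Cholesterol synthesis genes (n = 15) had a median of 0.061, with Ebp at 0.82. With median-of-ratios scaling the medians of all these lists were above 0, and with the reads and 1 factor those of the ribosomal (-0.005) and unfolded protein lists (-0.010) were just below it. The plot of gene lists places all of these beside the matrix genes.

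**Figure D4:**
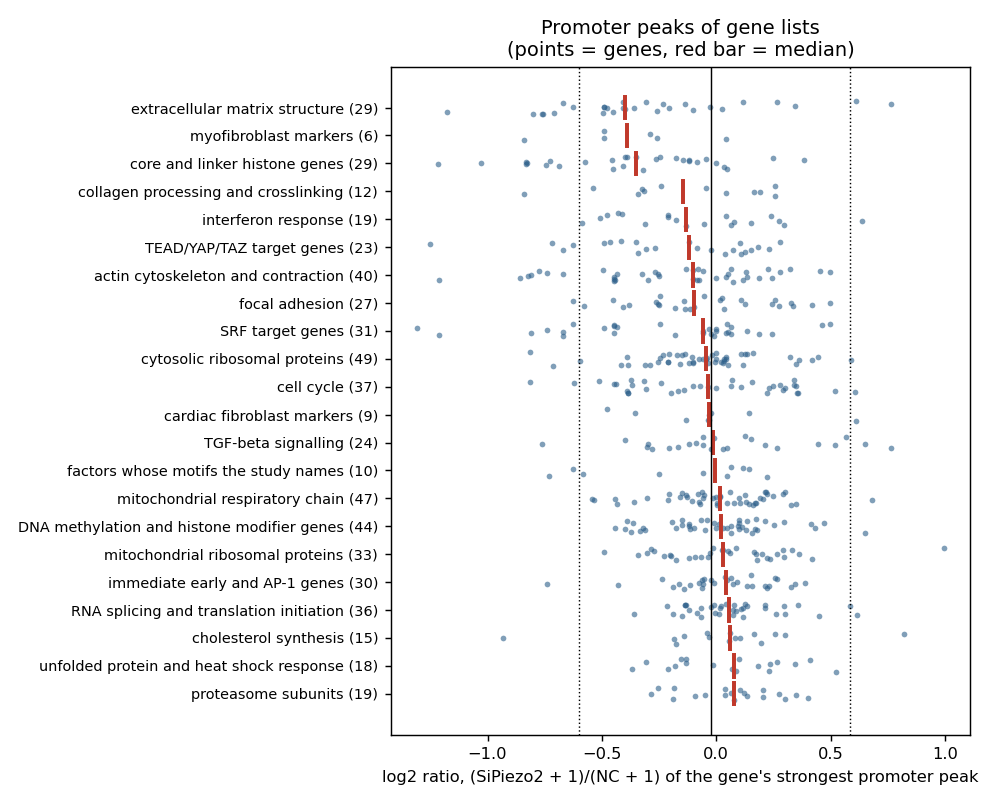
Log2 ratio, SiPiezo2 to NC, of each gene's strongest promoter peak (x axis) for 22 gene lists (y axis, number of genes in brackets); points are genes, red bars list medians, the black line the median of all genes and dotted lines ratios of 0.66 and 1.5. Matrix (-0.40), myofibroblast (-0.39) and histone genes (-0.35) lie left of the line, while proteasome subunits (0.079) lie right of it.

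Promoter and other peaks of the same gene often differed. For 3818 genes with a promoter peak and at least 1 other peak whose windows were apart, the median log2 ratio was -0.021 at the promoter and -0.16 over the summed other peaks. The promoter was the higher of the 2 in 2388 genes (62.5%), by a median of 0.13 (quartiles -0.16 and 0.42). In 1447 genes both were below 0, in 1241 the promoter was above and the others below 0, in 562 the reverse, and in 568 both were above 0. Across genes, which share their libraries and are not replicates, Pearson's r was 0.076. Of 210 genes with a promoter below 0.66 and 347 with other peaks below 0.66, 24 were in both sets, 11.4% and 6.92% of each. Over all 3818 genes 9.09% had other peaks below 0.66 and 5.50% the promoter, so the overlap was near the background. The median gap with the reads and 1 factor was 0.049, and the promoter was higher in 55.3% of the genes.

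The gap of some gene lists was wide in the deposited densities. Over 29 actin genes the promoter median was -0.078 and that of the other peaks -0.34, with the other peaks below 0 in 27 genes and the promoter above them in 20. SRF targets had -0.057 and -0.28 over 21 genes, and focal adhesion genes -0.097 and -0.29 over 21 genes, with the promoter higher in 14 and 17. Over all 3818 genes the promoter was higher in 2388 (62.5%). The counts for actin genes (20 of 29) and SRF targets (14 of 21) were near that share. Other peaks were below 0 in 70.3% of the 3526 genes whose promoter was past neither threshold. Cell cycle genes had 0.11 and -0.17 over 8 genes, with the promoter higher in 7. With the reads and 1 factor, added after seeing the data, the medians were -0.16 and -0.20 for actin genes, -0.16 and -0.20 for SRF targets, -0.013 and -0.17 for focal adhesion genes and 0.15 and 0.0069 for cell cycle genes, so the gap of the actin and SRF lists depended on the fit. As examples chosen after their values were seen, Tpm1, tropomyosin 1, had a promoter at 0.19 while its other peaks summed to 180 and 108 (-0.72). Zyx had 0.50 and -0.26, and Srf 0.064 and -0.36. In Myl9 (-1.21 and -0.76), Actn4 (-0.86 and -0.62), Lox (-0.84 and -1.40) and Tuft1 (-1.31 and -0.49) promoter and other peaks were lower together, and in Fn1 the promoter was at -0.26 and the other peaks, with 182 and 75, at -1.27. Matrix genes differed from this: over 24 of them the promoter median was -0.38 and that of the other peaks -0.078, and the promoter was the higher in 8, a count that was the same with the pseudocount of 0.1 and under every scaling.

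**Figure D5:**
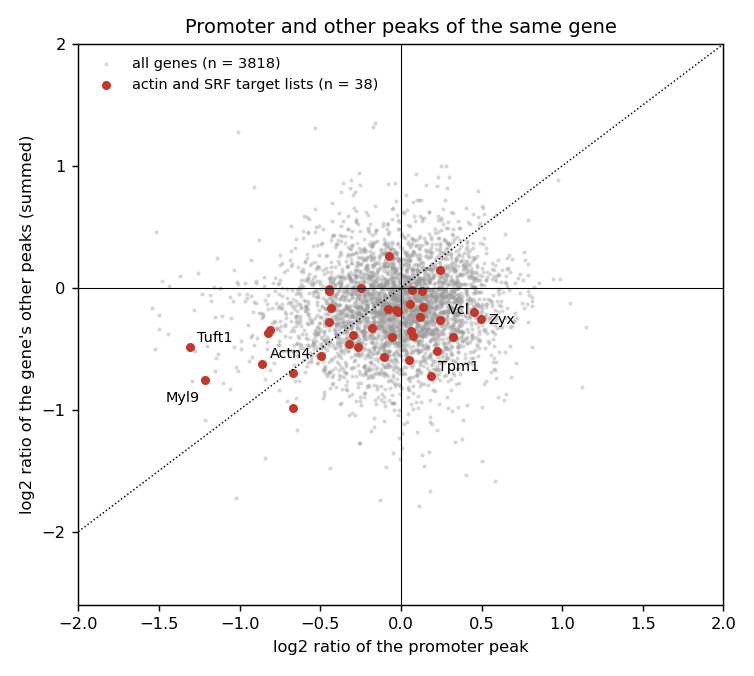
Log2 ratio, SiPiezo2 to NC, of the promoter peak (x axis) and of the summed other peaks (y axis) of 3818 genes, with 38 actin and SRF target genes in red and a dotted line where both are equal. Most red points lie below 0 on the y axis while they spread to both sides of 0 on the x axis, with Tpm1 at 0.19 and -0.72.

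By rule, the genes with the largest gap between promoter and summed other peaks were named in each direction, among genes for which both were above the median density of their kind; genes with a weaker promoter or weaker other peaks had larger gaps in places. Drg1, a GTP-binding protein gene, had a promoter at -0.53 and other peaks at 1.31, Gm15270 had -1.26 and 0.12, Chd2 had -1.44 and -0.38, and Cav1, of caveolae, had -0.58 and 0.46. The 4 other peaks of Drg1 summed to 746 in the NC and 1855 in the SiPiezo2 library. Such strong peaks are unusual, since the median peak outside the promoter class had 23.3 and 20.9, and the reason was not tested. In the other direction were Sec63, of protein import into the endoplasmic reticulum (0.71 and -0.61), Maea (0.56 and -0.69), Marf1 (0.57 and -0.57) and Asb6 (0.36 and -0.78). The rule also took the 4 genes with the largest gap between their own promoter peaks: Cald1 had -0.45 at the stronger and 0.90 at the weaker peak, Slc4a2, an anion exchanger, 0.22 and -0.84, Tmbim6, an endoplasmic reticulum protein, 0.55 and -0.53, and Lrrc27 0.63 and -0.40. The intervals lay on opposite sides of 0 for Cald1 and Tmbim6, and included 0 at 1 of the peaks of Slc4a2 and Lrrc27.

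Promoter sequence was compared for 5799 promoters, 1 peak per RefSeq sequence of 250 bases before to 50 after the start; 6357 of 7920 coding promoter peaks (80.3%) matched by gene name, and for 78.8% of the 5799 the RefSeq start lay within 100 bp of that of the table's transcript. Open promoters were rich in CpG, with a median observed over expected CpG of 0.773 against 0.384 over all 32851 RefSeq promoters. The decile with the fewest CpG (n = 580) had a median log2 ratio of -0.10 and 9.48% below 0.66, and the next decile -0.082 and 7.59%, while the other 8 deciles lay between -0.011 and 0.019. In promoters above the median density the decile with fewest CpG had -0.098 and the others 0.043, and in those below it -0.11 and -0.075, a smaller gap. With the reads and 1 factor the lowest decile was at 0.035 and the others at 0.057, so most of the gap over all densities was not seen without the fit.

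In all, 18 motifs were searched on both strands, and 16 had enough matches for a comparison. The CArG box was in 81 promoters (1.40%, against 1.63% of all RefSeq promoters), with a median of -0.074 against -0.014 without it. With 1 mismatch allowed it was in 529, with -0.032 against -0.012 and 6.24% against 4.52% below 0.66, a smaller difference. Of the 81 promoters with the exact box, 49 (60.5%) were lower, against 51.9% of all 5799 promoters, and 9.88% were below 0.66 against 4.60% without the box. Among the same 81 the interval lay below 0 in 9 (11.1%) and above 0 in 2 (2.47%), against 6.95% and 5.55% of all 5799. The lowest were Dgkh, a diacylglycerol kinase gene (13.6 and 4.96, -1.29), Lurap1l (27.6 and 11.2, -1.23), Myl9 (-1.21) and Zfp811 (-0.79), followed by Dmd, dystrophin (-0.76), and Egr2 (-0.74), as ordered by their values. GGAATG, of TEAD, was in 687 promoters (11.8%, against 14.7% of all), and the medians with and without it were -0.016 and -0.014, so the lower density at Edn1 and Lmod1 was not shared by the promoters with these letters as a group. TATAAA (n = 397, 6.85% against 13.6%) had -0.058 and 8.06% below 0.66, against -0.012 and 4.42% without. GGGCGG, of SP and KLF factors, was in 68.3% of these promoters against 35.7% of all, with medians of -0.0001 and -0.042, and CCGGAAG, of ETS factors, in 17.6% against 8.86%, with 0.016 and -0.021. CCAAT was in 42.5% against 37.4%, with 0.0038 and -0.025. The difference between promoters with and without the motif, under the reads with 1 factor, was -0.062 for the CArG box, against -0.060 in the densities, and -0.015 against -0.047 for TATAAA, 0.0099 against 0.042 for GGGCGG, 0.028 against 0.036 for CCGGAAG and -0.0076 against 0.029 for CCAAT. Lower medians with than without the motif were also found for CAGACA of SMAD (n = 900, 15.5% against 21% of all) at -0.042 and -0.0077, and TGANTCA of AP-1 (n = 315, 5.43% against 7.81%) at -0.061 and -0.012. GAGGAAGT of PU.1 (n = 141, 2.43% against 3.20%) had -0.042 and -0.014. AAAGGTCA of NR4A1 (n = 46, 0.793% against 1.51%) had -0.088 and -0.014, and the NRF1 motif (n = 104, 1.79% against 0.971%) had -0.058 and -0.014; the sign of both differences turned under the reads. Medians were higher with than without TGACGTCA of CRE (n = 195, 3.36% against 1.79%; 0.0038 and -0.015), AAGATGGCG of YY1 (n = 183, 3.16% against 1.40%; 0.0077 and -0.015), CACGTG, the E-box (n = 586, 10.1% against 7.15%; 0.012 and -0.018), and the ZBTB33 motif (n = 63, 1.09% against 0.466%; -0.0012 and -0.014). With only the promoters whose RefSeq start lay within 100 bp, the difference kept its sign for each of the 16 motifs, and for PU.1 it was -0.0059 in place of -0.0285. A match is a run of letters and was not shown to be bound.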

How the data were processed

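ATAC-seq peaks of 2 libraries (NC and SiPiezo2) were analysed. The authors deposited 1 table with a normalized read density (signal) per peak and library; their notes name BWA 0.7.12 and mm10, and duplicate removal and MACS2 are described. Densities had been scaled by a linear fit of log2 ratio on mean log2 density, made on peaks that both libraries share. Reads per 2000 bp window were recovered from the 2 densities by finding the fit that makes them whole (whole for 100% of windows, tolerance 0.05, fit intercept -0.2482, slope 0.1738). The authors' fold change and p-value columns were not used. Promoter windows held 915699 and 557515 reads, of 4615335 and 2754046 in all.

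Log2 ratios used a pseudocount of 1, with thresholds of 0.66 and 1.5. Reads gave 95% Clopper-Pearson intervals. A gene's value is that of its strongest promoter peak. Named were the 8 lowest and highest peaks above the median density, the 5 strongest, the 2 lowest and highest of each of 29 lists, myofibroblast markers, the list of regulators, and 4 genes per gap in own peaks or, in each direction, between promoter and other peaks (both above the median density of their kind); fewer are printed, and some are not reported here. The members and lists were chosen with earlier results of these data known. Alternatives were the pseudocount, scaling, peaks kept, fold threshold and class by distance. Biotypes came from GENCODE M21. On simulated data read numbers were recovered for 100% of 63316 peaks, and 96.1% of intervals held the true ratio. The simulated reads held counting error only, and the intervals were checked without the fit. Real promoter ratios varied 1.61 times as much as counting error gives, so the share for the real data is not known. Scripts ran in Python 3.11.15 with scipy 1.17.1, pandas 2.3.3, numpy 2.4.6 and, for plots, matplotlib 3.10.9.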

Additional observations from a re-analysis of the deposited data

How the results depend on the processing

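The promoter median of -0.0298 moved to 0.1063 with median-of-ratios scaling, 0.0557 at the same total density, 0.0484 with the recovered reads and 1 factor, 0.0449 for peaks called in both libraries, 0.0309 above the median density, -0.0425 for all 14801 peaks within 1 kb by distance, and -0.0177 for windows that overlap no other, chosen after seeing the data. The 542 lower promoters became 298 with median-of-ratios scaling, 301 with the reads, 106 called in both, 139 above the median density, 951 by distance and 97 at 2-fold. The 183 higher ones became 510, 412 and, at the same total, 355, 134 called in both libraries, where higher thus outnumbered lower, and 71 above the median density, 308 by distance and 12 at 2-fold. The promoter median minus that of other peaks (0.1264) was 0.034 with the reads, 0.0604 for peaks called in both and 0.1454 above the median density. The rise with promoter strength, an alternative added after seeing the data, turned with the reads. Of 29 list medians 12 changed sign with median-of-ratios scaling, 7 at the same total and 5 with the reads, and none with the pseudocount of 0.1 or on autosomes alone. With only peaks called in both libraries 5 of 26 changed sign, above the median density 3 of 24, and with a gene's promoter peaks summed 2 of 29. Of 16 motif differences 3 changed sign with the reads and none under the other scalings or the pseudocount of 0.1. Of 58 named peaks past a threshold 51 to 58 remained past it under these scalings and the pseudocount. No paired analysis was possible because each condition has 1 library. Depth limits single promoters through their intervals, with a median width of 1.05. With 1 library per condition no library could be left out.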

Other observations

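Promoters of gene families outside the comparisons above gave these values. Zinc finger (Zfp) genes, many of them of the KRAB type of repressor, had 160 promoter peaks with a median log2 ratio of -0.090, 96 lower, 12 below 0.66 and 1 above 1.5, where 52.7% of all genes were lower and 5.50% below 0.66. Zfp983 (13.6 and 5.54) and Zfp1006 (18 and 8.56) were the lowest at -1.15 and -0.99, from weak peaks, and Zfp560 (26.2 and 40.4) the highest at 0.61. Solute carrier genes had 122 promoter peaks and a median of -0.041, with Slc37a3, of the sugar phosphate exchanger family, at 55.5 and 27.1 (-1.01, interval -1.59 to -0.55) and Slc25a13, the mitochondrial aspartate and glutamate carrier, at 14.3 and 25.5 (0.79). Interferon response genes had 19 and a median of -0.13, with Ifit2 (36.5 and 24, -0.59) and B2m, of MHC class I (60.1 and 41.9, -0.51), below and Bst2, tetherin (26.9 and 42.4, 0.64), above. With median-of-ratios scaling the medians of all 3 families were above 0. Among mitochondrial ribosomal proteins (33 promoters, median 0.028) Mrps31 stood out at 18.4 and 37.8 (0.997, interval 0.46 to 1.64). Longer lists of cell type markers than those of the check above were also read. That of cardiac fibroblasts had 9 promoters and a median of -0.032, or 0.10 with median-of-ratios scaling, from Mfap5 (39.4 and 28.0, -0.48) to Dcn (0.61). Few promoters stood for the endothelial (Tek, 0.12), cardiomyocyte (Atp2a2, 0.41, and Myl3, -0.086), leukocyte (Laptm5, 0.063) and Hox lists (Hoxb9, 0.25), all with intervals that include 0.

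Autosome medians lay between -0.077 and 0.016, the share of promoter peaks below 0.66 between 2.87% and 8.76% and the share above 1.5 between 0 and 3.35%, with no test of these differences, and the X chromosome, with 237 promoter peaks, had -0.063. Genes with 1 promoter peak had a median of -0.019, those with 2 of -0.061 and those with 3 or more of -0.11. Wider promoter peaks were higher in the deposited densities, with medians of -0.074, -0.051, -0.026 and 0.032 in 4 groups from the narrowest to the widest.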
